A study of Mus musculus with 7 samples.

Results

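The clustered protocadherin genes are 58 of the 55450 genes in the deposited gene tables, chosen by symbol as the numbered members of the alpha (14 genes), beta (22) and gamma (22) protocadherin clusters, including the 5 genes named Pcdhac1, Pcdhac2, Pcdhgc3, Pcdhgc4 and Pcdhgc5. The rule uses symbols and no measured value. The RNA came from C57BL/6 mouse cerebella at postnatal day 15, as 3 libraries from WT mice and 4 from L3mbtl3 KO/+ mice, which carry 1 knockout and 1 wild-type allele of the chromatin reader gene L3mbtl3. The labels give neither the deleted part of L3mbtl3 nor the litters, and they name no treatment. The comparison asks whether losing 1 copy of L3mbtl3 alters these genes in the young cerebellum.

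Protocadherins are cadherin-like adhesion proteins of the cell surface, and the clustered ones give neurons an identity code. In the alpha and gamma clusters each gene is a large variable exon with its own promoter, which encodes the extracellular domain, the membrane span and a stretch of cytoplasmic tail, and the transcript is spliced to constant exons that all genes of the cluster share. Beta genes have no constant exons. Single neurons, Purkinje cells among them, are known to transcribe a varied choice of the alternate genes, steered by CTCF and cohesin, while the C-type genes at the end of the alpha and gamma clusters are under separate control and are expressed more widely.

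All 58 genes lie on the plus strand of chromosome 18, from base 36930184, the start of Pcdha1, to base 37841873, the end of the gamma cluster (GRCm38). The alpha constant exons have 59, 89 and 2712 bases (37156155 to 37156213, 37159265 to 37159353 and 37184946 to 37187657), and the gamma constant exons have 59, 89 and 1971 bases (37825021 to 37825079, 37833265 to 37833353 and 37839903 to 37841873). A full-length alpha transcript therefore holds 2860 constant bases beside 2346 to 3028 variable ones, and a full-length gamma transcript at most 2119 beside 2499 to 2961. Reads that fall in the constant exons were divided between the genes of a cluster by the estimation program RSEM. Of the 50-base windows of the transcripts, 43.8% to 63.9% recurred in another member for alpha genes and 26.9% to 65.3% for gamma genes. For beta genes the range was 0% to 11.99%. With genes outside the family counted too, the share was 90.1% for Pcdha4, 68.7% for Pcdha7, 68.1% for Pcdha6 and 37.3% for Pcdhgc5. Gene levels within alpha and gamma are therefore uncertain where the division could err. Sums of counts over a cluster do not depend on the division between its members, but reads divided with genes outside the family could alter them. Sums of TPM do depend on the division between members, since a read counts for more TPM in a shorter transcript. The symbol Pcdha11 occurs for 2 genes in the files. The upstream one (ENSMUSG00000007440.10, start 37005203) lies where RefSeq places Pcdha10 on the same build and is called Pcdha11-upstream here, and the other (ENSMUSG00000102206.5, start 37010712) is called Pcdha11-downstream.

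Total counts per library were 29248360 to 43761792. Libraries are given in the order of their replicate numbers, WT 1 to 3 and KO/+ 1 to 4. L3mbtl3 was at 17.4 to 26.8 CPM (read counts scaled to library size) in the 7 libraries with overlap between the genotypes (log2 fold change -0.23, SE 0.12, 95% interval -0.50 to 0.039), so its level does not check the labels. As a check of the tissue label, the 9 markers of granule neurons summed to 4530 to 6883 CPM and the 6 of Purkinje cells to 3519 to 5502 CPM. Other marker lists differed between libraries. The widest range was that of the 7 choroid plexus markers, which summed to 12.5, 1003 and 25.2 CPM in WT and 1412, 1013, 706 and 11.6 CPM in KO/+. The 5 markers of myelinating oligodendrocytes ranged from 7216 CPM in KO/+ replicate 4 to 17759 CPM in WT replicate 3. The 3 markers of serotonergic brainstem neurons summed to 11.9 CPM in WT replicate 3 and to 0.947 to 1.27 CPM elsewhere, with Fev under 0.5 CPM in every library. The 8 markers of dividing progenitors summed to 466 to 594 CPM in WT replicates 1 and 2 and KO/+ replicates 3 and 4, and to 203 to 228 CPM in the other three. The 3 markers of oligodendrocyte precursors, Pdgfra, Cspg4 and Gpr17, summed to 239 to 273 CPM in WT and 136 to 222 CPM in KO/+. The part of these differences in the results below was not tested.

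Of the 58 clustered protocadherin genes 57 passed the filter on low counts in these cerebella, and the gamma cluster held most of the transcripts. In TPM, which are scaled by transcript length as well as by library size and so allow levels of different genes to be compared, the whole family summed to 393 to 506 in the 7 libraries, of which the gamma genes made up 66.1% to 69.6% (61.8% to 65.6% in CPM, which are not scaled by length). The order of levels began with Pcdhgc3 (mean over 7 libraries 109 TPM) and Pcdhgc4 (105 TPM). Of the Pcdhgc4 level, 83.3% to 90.8% belonged to a short transcript model made mostly of constant exons, so its rank is uncertain. The next were Pcdhac2 (22.8 TPM), Pcdhga11 (11.5 TPM), Pcdhb20 (9.40 TPM) and Pcdhb9 (9.10 TPM). The ranges of Pcdhgc3 and Pcdhgc4 over libraries overlapped, as did those of Pcdhb20 and Pcdhb9, whereas every library of Pcdhac2 was above every library of Pcdhga11. Apart from the C-type genes, the alpha genes spanned 0.556 to 5.93 TPM (median 2.67, 12 genes), the beta genes 0.0486 to 9.40 TPM (median 3.47, 22 genes) and the gamma genes 0.889 to 11.5 TPM (median 4.61, 19 genes).

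**Figure D1:**
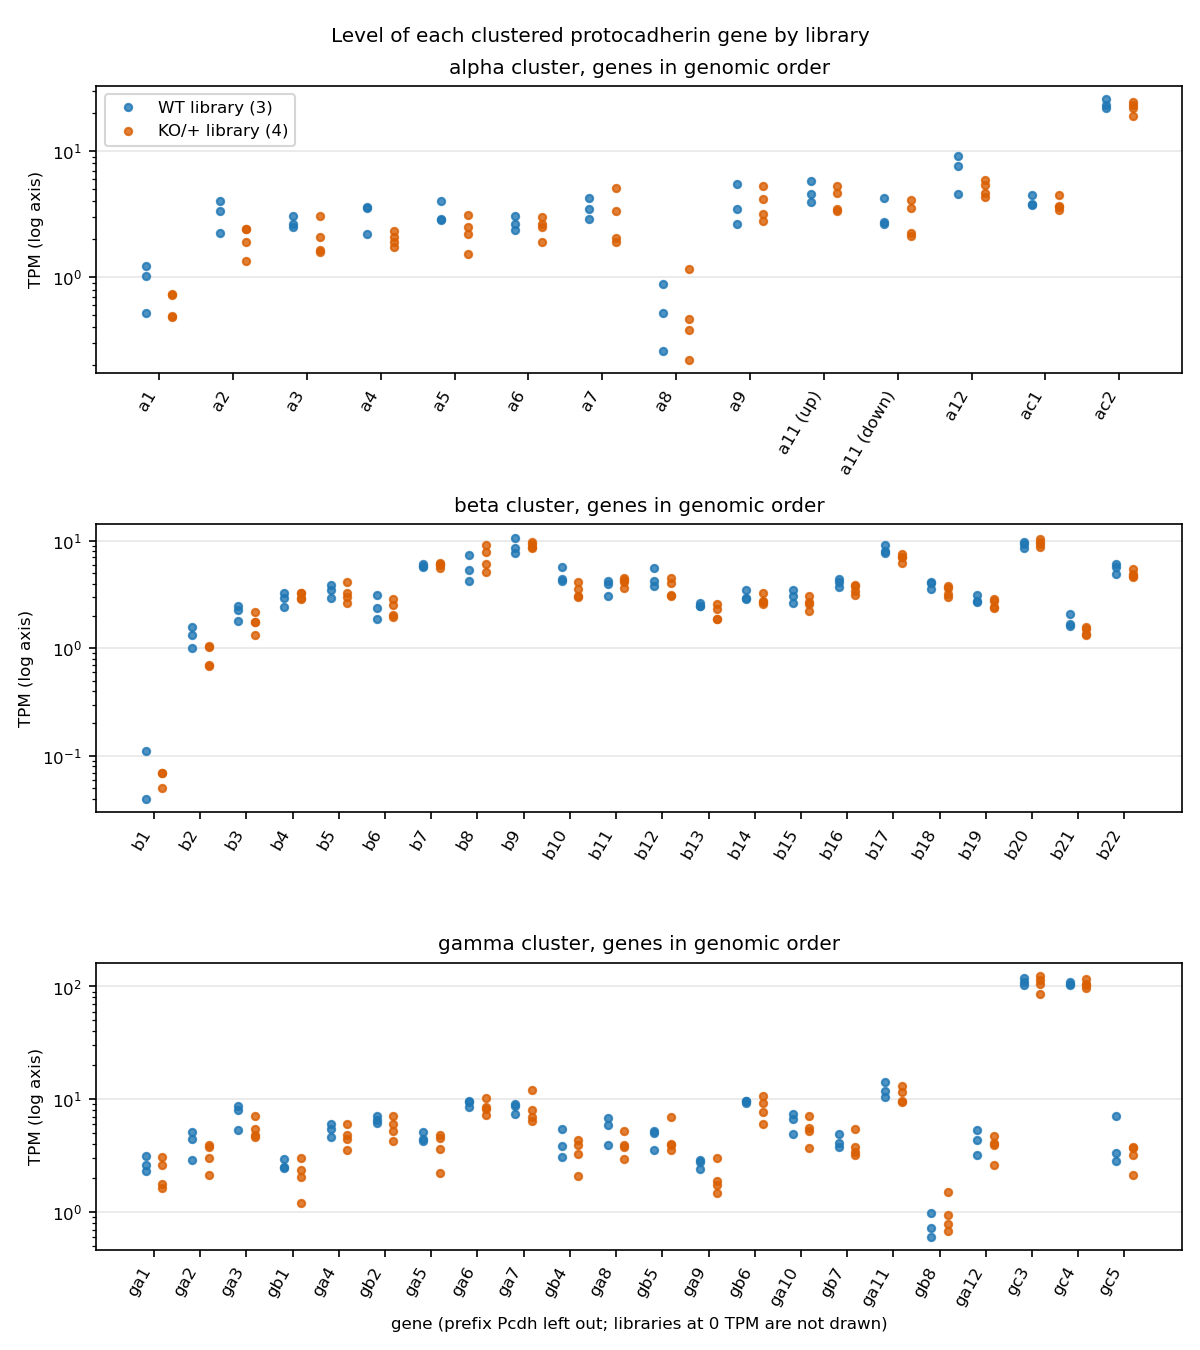
Level of each gene in TPM (log axis) against its place in the cluster from 5′ to 3′, one panel per cluster, with blue points for the 3 WT and orange points for the 4 KO/+ libraries. Pcdhgc3 and Pcdhgc4 stand near 100 TPM in every library, Pcdhac2 at 19.1 to 25.9 TPM, and the points of the genotypes overlap for most genes.

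None of the family passed the test between genotypes. Of the 57 members tested, 0 had a Benjamini-Hochberg adjusted p under 0.05 in edgeR's quasi-likelihood test over all 16813 genes tested, and the smallest adjusted p was 0.957. The test called 0 genes of 16813 in either direction, a background of 0%. At an unadjusted p under 0.05 stood 4 members (Pcdha2, Pcdha4, Pcdhb10 and Pcdhb17), all lower in KO/+, beside 1.9% of all genes lower and 1.25% higher. DESeq2 and limma-voom also called 0 genes and left the same number of 4 members at an unadjusted p under 0.05.

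The signs of the estimates were uneven. Of the 57 members, 44 had a negative log2 fold change of KO/+ relative to WT and 13 a positive one, with a median of -0.15, where 51.2% of all tested genes were negative and their median was -0.0047. Negative estimates numbered 11 of 14 in the alpha, 15 of 21 in the beta and 18 of 22 in the gamma cluster, with medians of -0.15, -0.12 and -0.19. The 5 C-type genes had a median of -0.026. On log2(TPM + 1) with limma-trend 49 of 57 members were negative, but so were 62.6% of all genes. Without WT replicate 3 the members' count was 40 of 57, and without KO/+ replicate 4 it was 49 of 57. Members of 1 cluster share reads and libraries and are not independent. A member's SE was 0.18 in the median, so a difference of the size of the median lies within the error of most single genes, and from bulk RNA fewer cells of a type and less RNA per cell cannot be told apart.

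**Figure D2:**
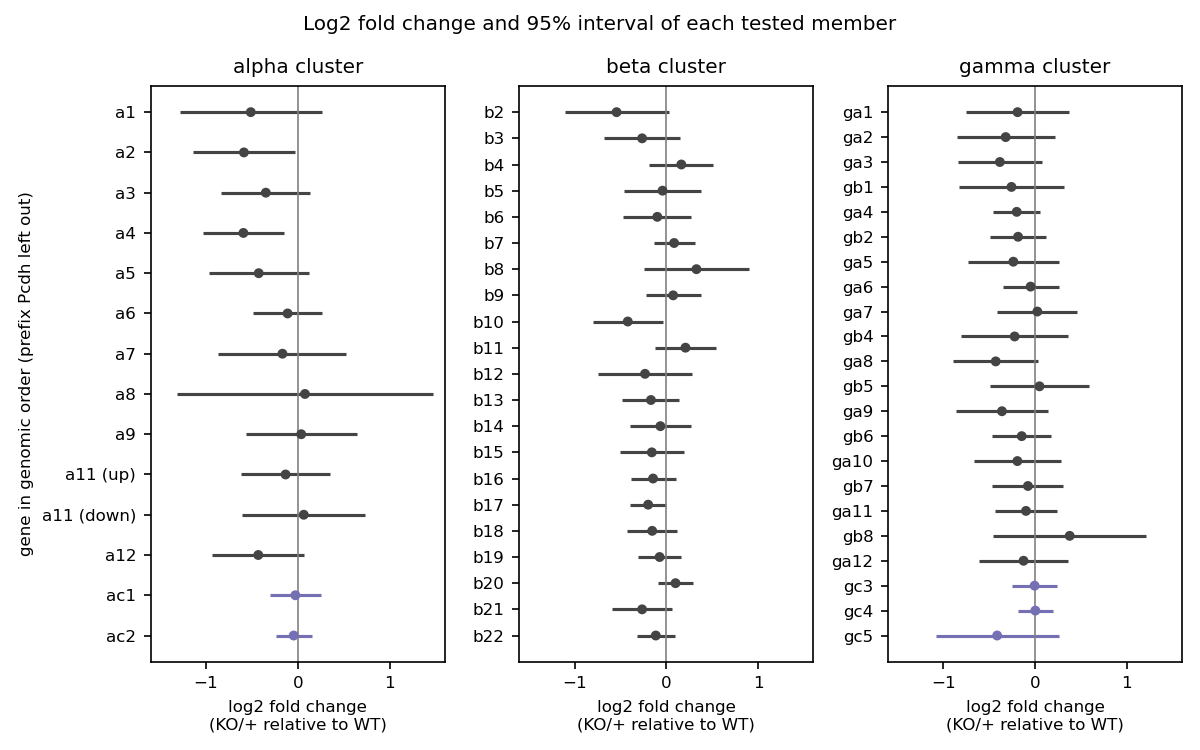
Log2 fold change of KO/+ relative to WT for the 57 tested members in genomic order, one panel per cluster, with horizontal lines for 95% intervals from edgeR and C-type genes in purple. The intervals exclude 0 only for Pcdha2, Pcdha4, Pcdhb10 and Pcdhb17, which have adjusted p of 0.957 in edgeR's test, and the widest belongs to Pcdha8.

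Sums over each cluster were closer between genotypes than many single genes. The alpha genes summed to 218, 222 and 228 CPM in WT and to 189, 193, 194 and 221 CPM in KO/+. KO/+ replicates 1 to 3 lay below all WT libraries and KO/+ replicate 4 lay among them. Fitted, this gave a log2 fold change of -0.16 (SE 0.081, 95% interval -0.35 to 0.026), which corresponds to 89.5% of the WT level, and it was -0.22 without KO/+ replicate 4. Choroid plexus markers divided the KO/+ libraries in the same way, at 706 to 1412 CPM in KO/+ replicates 1 to 3 and 11.6 CPM in KO/+ replicate 4, but WT replicate 2, at 1003 CPM, had an alpha sum of 222 CPM. Oligodendrocyte precursor markers were at 136, 163, 219.5 and 222 CPM in the KO/+ libraries and higher in every WT library. Progenitor markers were low in KO/+ replicates 1 and 2 and not in KO/+ replicate 3, and WT replicate 3, also low in them, had the highest alpha sum. The part of these markers in the alpha sum was not tested.

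The beta genes summed to 215, 208.5 and 238 CPM in WT and to 218, 219, 206 and 206 CPM in KO/+, with full overlap and a log2 fold change of -0.056 (SE 0.078, 95% interval -0.24 to 0.12). It was 0.0021 without WT replicate 3, the library with the highest beta sum. The gamma genes summed to 761, 756 and 824 CPM in WT and to 659, 753, 759 and 814 CPM in KO/+, a log2 fold change of -0.065 (SE 0.099, 95% interval -0.29 to 0.16). KO/+ replicate 1 was the low library, and without it the value was -0.0089, while it was -0.12 without KO/+ replicate 4. The intervals of the 3 sums leave room for a loss of about the size of the alpha estimate in every cluster.

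**Figure D3:**
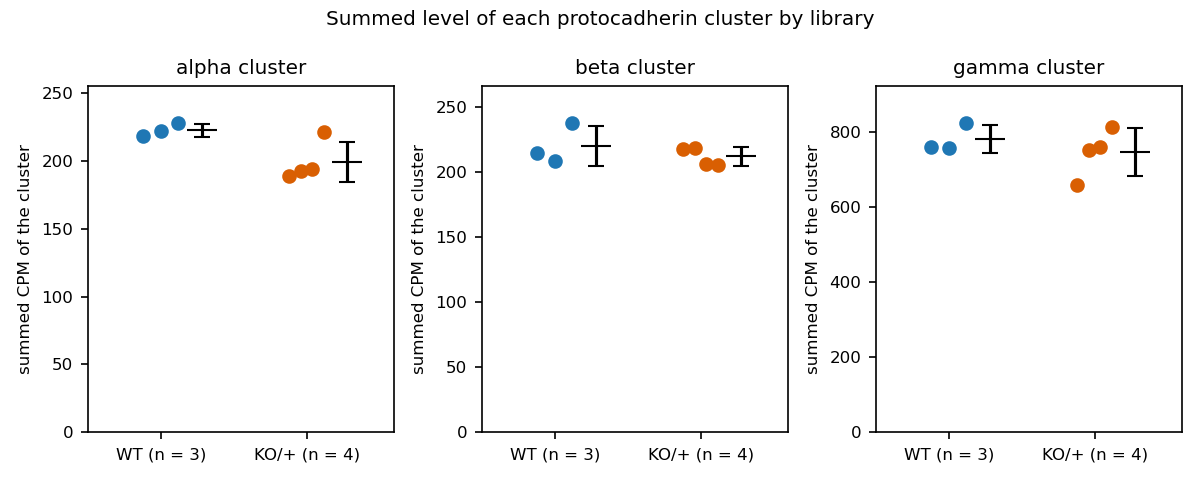
Summed CPM of the 14 alpha, 22 beta and 22 gamma genes in each library (points), with the mean and SD of each genotype as a black bar. Alpha sums of 3 of the 4 KO/+ libraries lie under the WT range of 218 to 228 CPM, and the beta and gamma sums overlap.

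Pcdhac2 in the alpha cluster and Pcdhgc3 and Pcdhgc4 in the gamma cluster had the highest levels of their clusters, all of them C-type genes. The rank of Pcdhgc4 rests on its short transcript model. Pcdhac2, which is known for its part in spacing the axons of serotonergic neurons, was at 22.03, 23.1 and 25.9 TPM in WT and 19.1, 22.2, 23.1 and 24.5 TPM in KO/+. Its log2 fold change was -0.045 (SE 0.086, 95% interval -0.24 to 0.15). Its neighbour Pcdhac1 was at 3.76, 4.53 and 3.78 TPM in WT and 3.61, 3.65, 3.44 and 4.53 TPM in KO/+, with a log2 fold change of -0.026 (SE 0.12, 95% interval -0.30 to 0.25). For both genes the libraries of the genotypes overlapped, and the intervals exclude a log2 change of 1 in either direction.

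Pcdhgc3 was at 103.5, 109.5 and 119 TPM in WT and 85.7, 106, 124 and 113.5 TPM in KO/+, with KO/+ replicate 1 lowest and KO/+ replicate 3 highest of all. Its log2 fold change was -0.0042 (SE 0.11, 95% interval -0.25 to 0.24). Between 95.5% and 96.6% of its TPM came from Pcdhgc3-201, the transcript with the whole variable exon, and not from a partial model. Its rank as the highest member holds for the mean over all libraries. In WT replicate 1 and KO/+ replicates 1 and 4 Pcdhgc4 was above it, at 104.6, 96.3 and 117.7 TPM. An antisense gene, BC037039, overlaps the start of Pcdhgc3 on the other strand and had 177 to 235 reads per library. How strand was used in counting is not given in the sources used here, so part of these reads cannot be assigned to 1 strand with certainty.

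Pcdhgc4, the gamma gene that is known to be needed for the survival of many neurons, was at 105, 103 and 109.7 TPM in WT and 96.3, 104, 103 and 118 TPM in KO/+ (log2 fold change 0.0038, SE 0.083). Most of this level belonged to a short transcript model. Pcdhgc4-203 has 2272 bases, of which 153 are its own and 2119 are the gamma constant exons, and RSEM gave it 83.3% to 90.8% of the gene's TPM and 67.8% to 80.6% of its reads. The model with the whole variable exon, Pcdhgc4-201 with 2905 variable bases, was at 11.5, 11.5 and 17.4 TPM in WT and 8.30, 11.1, 13.2 and 11.9 TPM in KO/+. That is 13.5 ± 3.39 TPM (SD, n = 3) against 11.1 ± 2.06 TPM (SD, n = 4), with overlap, and it would place Pcdhgc4 near Pcdhga11 in the order of levels. With transcripts of under 300 variable bases left out, an alternative added after the data were seen, the log2 fold change of Pcdhgc4 was -0.23. Whether reads of other gamma transcripts were assigned to Pcdhgc4-203 was not tested.

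**Figure D4:**
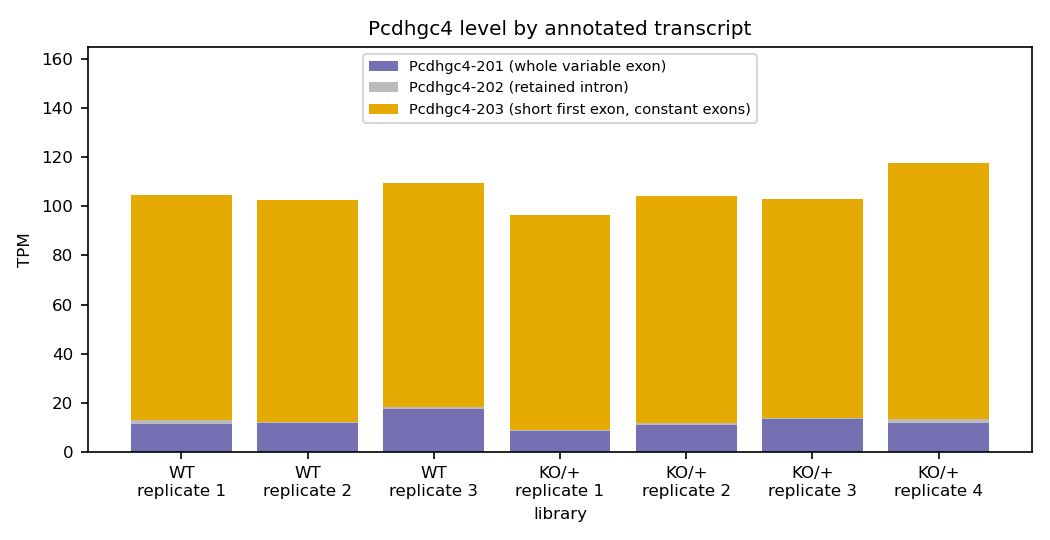
TPM of Pcdhgc4 in each of the 7 libraries, divided between its 3 annotated transcripts. The yellow part, Pcdhgc4-203, which is almost wholly made of the shared gamma constant exons, reaches 87.4 to 104.3 TPM, and the purple part with the whole variable exon 8.30 to 17.4 TPM.

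Pcdhgc5, whose product is known to bind synaptic GABA-A receptors, was the lowest gamma C-type gene at 2.83, 3.35 and 7.08 TPM in WT and 2.14, 3.68, 3.19 and 3.78 TPM in KO/+. WT replicate 3 stood far above the rest, and the remaining libraries of both genotypes overlapped. Its log2 fold change came to -0.41 (SE 0.29, 95% interval -1.08 to 0.26) with all libraries and to 0.0030 without WT replicate 3. That library was also highest in markers of serotonergic neurons, myelinating oligodendrocytes and GABAergic interneurons, whose part was not tested.

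The C-type genes made up 39.7%, 40.6% and 44.1% of alpha TPM in WT and 44.3%, 48.8%, 45.3% and 43.2% in KO/+, a mean difference of 3.95 percentage points at a pooled SD of 2.39 points. KO/+ replicate 4 lay within the WT range. In the gamma cluster C-type genes held 66.6%, 66.8% and 69.5% in WT and 70.9%, 71.6%, 71.6% and 66.9% in KO/+, a difference of 2.62 points at a pooled SD of 2.01 points. Without the short transcript models the gamma share was 52.8% to 57.9% in WT and 52.8% to 60.6% in KO/+, and the difference was 2.17 points at a pooled SD of 3.16 points. These differences were not tested, and in both clusters KO/+ replicate 4 was the KO/+ library nearest to WT.

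Among the 12 alternate alpha genes the level tended to be higher towards the 3′ end of the cluster. Spearman's rho between position and mean TPM was 0.73 over the 12 genes, which share the same libraries, and 0.23 to 0.76 within single libraries. The last alternate gene, Pcdha12, was the highest of them at 9.15, 7.57 and 4.54 TPM in WT and 4.34, 5.41, 4.64 and 5.88 TPM in KO/+. Pcdha11-upstream followed at 5.82, 4.62 and 3.93 TPM in WT and 5.27, 3.36, 3.51 and 4.65 TPM in KO/+. The low end was held by Pcdha8, at 0.26, 0.52 and 0.88 TPM in WT and 1.16, 0.22, 0.47 and 0.38 TPM in KO/+, and by the first gene, Pcdha1, at 0.52, 1.02 and 1.22 TPM in WT and 0.73, 0.74, 0.48 and 0.49 TPM in KO/+. The order of the alternate alpha genes by mean TPM was alike in the genotypes (rho 0.87, as a description).

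The smallest unadjusted p of the family was that of Pcdha4. Of its 50-base windows 54.8% recurred in another member, and 90.1% with genes outside the family counted too. The gene model Gm42416, which starts at base 36952741, near the start of Pcdha4 at 36952648, was assigned 0 reads in every library. Pcdha4 was at 11.2, 7.07 and 11.8 CPM in WT and 6.25, 7.36, 5.83 and 7.17 CPM in KO/+. WT replicate 2 lay within the KO/+ range and the other two WT libraries above it, with a log2 fold change of -0.59 (SE 0.19, 95% interval -1.03 to -0.15) and an adjusted p of 0.957 in edgeR's test. Pcdha2 was at 6.85, 10.1 and 12.6 CPM in WT and 4.92, 8.08, 5.86 and 7.41 CPM in KO/+ (fitted log2 fold change -0.59, SE 0.24), with WT replicate 1 among the KO/+ libraries. The value of Pcdha2 was -0.37 without WT replicate 3. Within the alpha cluster Pcdha12 had the next smallest p, with a log2 fold change of -0.43 (SE 0.22), which was -0.20 without WT replicate 1, its highest library, and -0.67 without WT replicate 3.

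The other alternate alpha genes had log2 fold changes between -0.51 (Pcdha1) and 0.078 (Pcdha8), all with intervals that include 0. Pcdha3 and Pcdha5 were at -0.35 (SE 0.21) and -0.43 (SE 0.24), and Pcdha6, Pcdha7, Pcdha9, Pcdha11-upstream and Pcdha11-downstream at -0.11 to -0.17 or slightly above 0. For Pcdha1, Pcdha2, Pcdha4, Pcdha6 and Pcdha11-downstream the annotation also holds forms with fewer constant bases, 2163 or 2432 in place of 2860. The division between such forms was unsteady, as for Pcdha6-201, which took 12.3% to 100% of the gene's reads depending on the library, so levels of single forms are not compared here.

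Beta genes showed little order by position (Spearman's rho 0.32 over 22 genes) and a like order in both genotypes (rho 0.98). Pcdhb20 was the highest at 9.36, 8.61 and 9.68 TPM in WT and 8.84, 9.24, 9.68 and 10.4 TPM in KO/+, with a log2 fold change of 0.099 (SE 0.084). Pcdhb9 followed at 7.70, 8.66 and 10.7 TPM in WT and 8.73, 9.40, 9.84 and 8.66 TPM in KO/+. The libraries of the genotypes overlapped for both genes.

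The first beta gene, Pcdhb1, was not tested, since it had 0, 2 and 7 reads in WT and 4, 3, 0 and 3 in KO/+. A count of 0 allows up to 3 reads, or 0.0788 CPM in WT replicate 1 and 0.0883 CPM in KO/+ replicate 3, and this limit covers counting error only. The second gene, Pcdhb2, was the lowest tested one at 1.00, 1.34 and 1.59 TPM in WT and 0.68, 1.02, 1.06 and 0.70 TPM in KO/+ (log2 fold change -0.54, SE 0.25, 95% interval -1.11 to 0.025). WT replicate 1 lay within its KO/+ range.

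In the beta cluster 3 genes had CPM that did not overlap between genotypes, all lower in KO/+, and 0 members of any cluster were apart in the other direction. Over all genes 1.8% were apart in this direction and 2.16% in the other. Pcdhb17 was at 22.2, 25.3 and 22.9 CPM in WT and 19.5, 21.6, 19.5 and 21.2 CPM in KO/+, with a narrow gap between WT replicate 1 and KO/+ replicate 2. Its log2 fold change was -0.20 (SE 0.085, 95% interval -0.39 to -0.0042). Pcdhb10 was at 7.25, 6.85 and 9.35 CPM in WT and 5.56, 6.33, 6.63 and 4.84 CPM in KO/+, with a log2 fold change of -0.42 (SE 0.17, 95% interval -0.80 to -0.039).

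Pcdhb21 was at 6.01, 4.74 and 4.65 CPM in WT and 4.197, 4.22, 4.45 and 4.23 CPM in KO/+, with a log2 fold change of -0.26 (SE 0.14, 95% interval -0.59 to 0.060). The gap between the genotypes was smaller than the distance between WT replicate 1 and the other WT libraries, and the value was -0.14 without that library. Pcdhb10 was at -0.27 without WT replicate 3, its highest library. The 3 genes have an adjusted p of 0.957 each in edgeR's test. Over the other 15 tested beta genes the log2 fold changes ran from -0.26 (Pcdhb3) to 0.33 (Pcdhb8). For Pcdhb8 KO/+ replicate 1 stood at 14.01 CPM and the other libraries at 6.31 to 9.87 CPM.

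The alternate gamma genes, 12 of subfamily A and 7 of subfamily B interleaved along the cluster, had no order by position (Spearman's rho 0.060 over 19 genes) and a like order of levels in both genotypes (rho 0.98). Pcdhga11 was the highest at 14.2, 11.9 and 10.4 TPM in WT and 11.6, 9.70, 9.52 and 13.0 TPM in KO/+, with overlap and a log2 fold change of -0.098 (SE 0.15). Pcdhgb8, whose main transcript is annotated as a polymorphic pseudogene, was the lowest at 0.72, 0.98 and 0.60 TPM in WT and 0.68, 0.79, 1.51 and 0.94 TPM in KO/+. It had the largest positive estimate of the family, a log2 fold change of 0.38 (SE 0.36, 95% interval -0.46 to 1.21). The next lowest, Pcdhga9, was at 2.91, 2.76 and 2.39 TPM in WT and 1.49, 1.90, 1.75 and 3.01 TPM in KO/+, with KO/+ replicate 4 above all WT libraries and a log2 fold change of -0.36 (SE 0.22).

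No gamma gene had an unadjusted p under 0.05. The smallest was that of Pcdhga8, at 17.0, 19.04 and 11.5 CPM in WT and 9.44, 11.7, 11.2 and 14.8 CPM in KO/+ (fitted log2 fold change -0.43, SE 0.20, 95% interval -0.89 to 0.038). WT replicate 3 lay within its KO/+ range. Pcdhga3 was at 25.4, 15.0 and 23.4 CPM in WT and 14.7, 17.0, 13.7 and 19.9 CPM in KO/+ (fitted log2 fold change -0.38, SE 0.20), with WT replicate 2 among the KO/+ libraries. Pcdhga4 was at 13.5, 14.4 and 15.4 CPM in WT and 11.2, 12.3, 12.6 and 14.3 CPM in KO/+ (fitted log2 fold change -0.20, SE 0.11), with KO/+ replicate 4 among the WT libraries. With WT replicate 1 left out Pcdhga3 was at -0.24, and with WT replicate 2 left out Pcdhga3 was at -0.59 and Pcdhga8 at -0.28. The other 13 alternate gamma genes had log2 fold changes between -0.32 (Pcdhga2) and 0.049 (Pcdhgb5).

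The alternate alpha and gamma genes varied more from library to library than other genes of their level. The within-genotype SD of log2 CPM had a median of 0.38 over the 12 alternate alpha genes and 0.32 over the 19 alternate gamma genes, against 0.22 and 0.18 over all genes in the same CPM ranges. The beta genes, at 0.18, were below their comparison value of 0.21, and the C-type genes, at 0.14, were level with theirs of 0.14. Pcdha8 had the largest SD of the family at 0.94, at 0.867, 1.68 and 2.90 CPM in WT and 4.197, 0.772, 1.502 and 1.22 CPM in KO/+, from 30 to 145 reads per library. The highest library exceeded the lowest 5.44-fold for Pcdha8 and by a median of 2.02-fold over the alternate alpha genes, 1.86-fold over the alternate gamma genes and 1.43-fold over the beta genes. Transcripts of the alternate alpha and gamma genes share constant exons, but so do those of the C-type genes. The part of this sharing in the spread of the alternate genes was not tested. This spread sets the width of the intervals, since the SE had a median of 0.24 for the alternate alpha genes, 0.20 for the alternate gamma genes and 0.14 for the beta genes and for all genes.

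**Figure D5:**
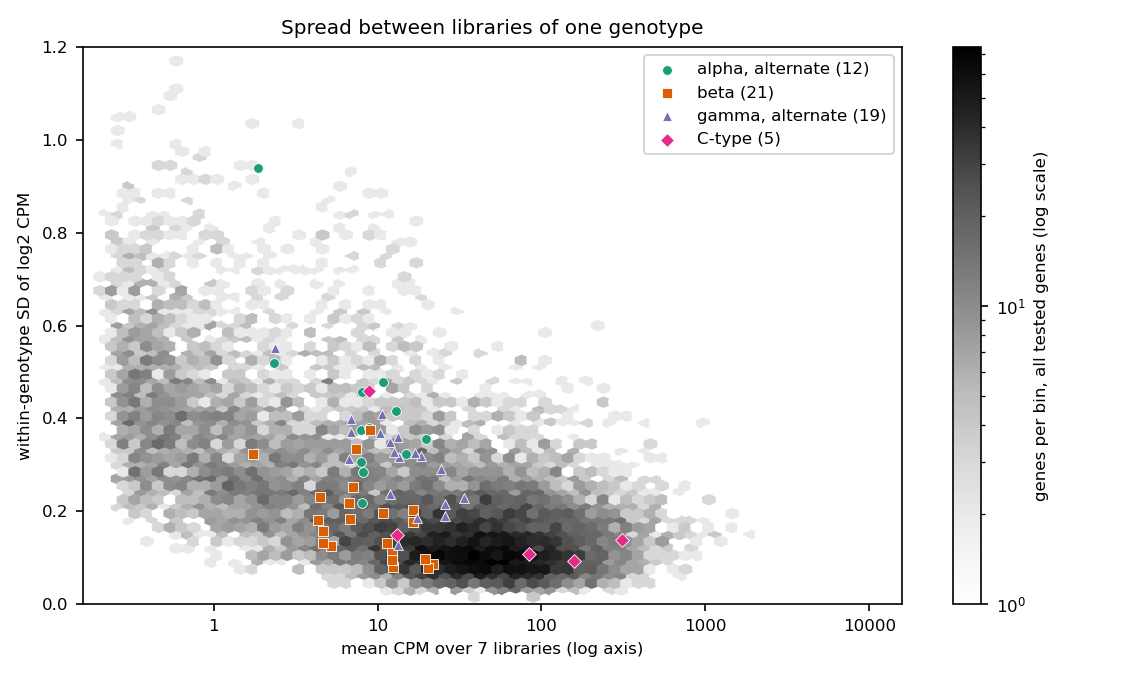
Within-genotype SD of log2 CPM against mean CPM over the 7 libraries (log axis) for the tested members (coloured symbols) over all tested genes (grey bins, darker for more genes; genes above 1.2 fall outside the axis). Green circles and purple triangles, the alternate alpha and gamma genes, lie mostly above the dense part of the grey cloud, while beta genes and most C-type genes lie within it.

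Of 22 listed regulators of protocadherin promoter choice, 0 passed the test, which called 0 of all 16813 genes tested. Of these regulators (CTCF, cohesin and its loaders, and DNA and histone methylation factors), 13 had a negative and 9 a positive log2 fold change. Their median was -0.037, where 51.2% of all tested genes were negative with a median of -0.0047. The cohesin subunit gene Stag2 was at 147, 148.5 and 152 CPM in WT and 178, 198, 177 and 145.5 CPM in KO/+ (fitted log2 fold change 0.22, SE 0.11), with KO/+ replicate 4 below all WT libraries. Dnmt3a, a de novo DNA methyltransferase, was at -0.15 (SE 0.11). Rad21, the cleavable cohesin subunit, was at 0.056 (SE 0.083).

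Of 17 genes for intracellular partners and processing enzymes, 12 were negative and 5 positive, with a median of -0.067. Of these 0 passed, as of all genes tested, of which 51.2% were negative. The kinase genes Ptk2 and Ptk2b, whose products FAK and PYK2 bind the constant tails, had log2 fold changes of -0.17 (SE 0.085) and -0.90 (SE 0.50). Ptk2b was at 13.6 CPM in WT replicate 3 and 2.64 to 4.00 CPM in the other libraries. The actin regulators of the WAVE complex Nckap1 and Cyfip2 were at -0.14 (SE 0.088) and -0.19 (SE 0.13).

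Other groups of cadherin-like genes also had negative medians, beside -0.0047 over all genes tested, of which 51.2% were negative and 0 were called. Of 12 non-clustered protocadherin genes, 11 were negative and 1 positive (median -0.35), and of 9 seven-pass and Fat-like cadherin genes all 9 were negative (median -0.38), with 0 calls in both lists. The first median was -0.51 with WT replicate 2 left out and -0.18 with WT replicate 3 left out, and the second -0.58 with KO/+ replicate 4 left out and -0.24 with KO/+ replicate 1 left out. Pcdh7 was at 48.1, 50.4 and 90.7 CPM in WT and 33.3, 44.3, 48.6 and 47.3 CPM in KO/+ (fitted log2 fold change -0.54, SE 0.23), and Pcdh8, an activity-regulated protocadherin, at 4.49, 4.82 and 12.8 CPM in WT and 3.04, 4.01, 4.03 and 4.84 CPM in KO/+ (-0.89, SE 0.37). In both genes WT replicate 3 was far above the other WT libraries, which lay at or near the KO/+ range. Pcdh9 and Pcdh1 were at -0.17 (SE 0.17) and -0.25 (SE 0.15).

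Among the Fat-like genes, Dchs2, of the Dachsous type, was at 0.656, 0.785 and 2.10 CPM in WT and 0.318, 0.463, 0.677 and 0.643 CPM in KO/+ (fitted log2 fold change -1.18, SE 0.46), again with WT replicate 3 highest. Fat3 was at 31.2, 36.1 and 32.8 CPM in WT and 18.4, 21.6, 25.1 and 34.5 CPM in KO/+ (-0.42, SE 0.19). Fat2, a marker of granule cells, was at 679, 688 and 421 CPM in WT and 425, 388, 396 and 693 CPM in KO/+ (-0.33, SE 0.25), and Fat1 was at -0.32 (SE 0.16). For Fat1 and Fat3 KO/+ replicate 4 lay at the WT level, as it did for the alpha cluster sum. For Fat2 it lay near WT replicates 1 and 2, while WT replicate 3 lay among the other KO/+ libraries.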

How the data were processed

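RNA of 3 WT and 4 L3mbtl3 KO/+ cerebella was sequenced as directional polyA libraries, per the labels. The authors used bcl2fastq, Trimmomatic 0.39, STAR 2.5.2a and RSEM 1.3.1 with mm10 and GRCm38, per the submitters' processing notes. The strand setting is not given in the sources used here. Deposited expected counts are RSEM's estimates of reads per gene or transcript, and deposited TPM are scaled by length and depth, per the file headers. All 55450 gene IDs were found in GENCODE M21 (GRCm38), which gave positions and exons.

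Expected counts were rounded. Genes were filtered with filterByExpr, scaled by TMM (factors 0.978 to 1.02) and compared with edgeR 4.0.16 (glmQLFit, robust, no covariate; R 4.3.3) with Benjamini-Hochberg adjustment over 16813 genes at 0.05. SE is the log2 fold change divided by the root of F, and intervals are at 95%. Alpha, beta and gamma sums were fitted as 1 feature each. The common biological coefficient of variation was 18.7%. The script was tested on simulated data. Intervals measure the spread between these libraries, and no libraries agreed within sampling noise.

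Members and lists were chosen with earlier results of these data known. Values in every library are given for the C-type genes, the 3 highest, 2 lowest and 3 smallest-p members of each cluster, and members that did not overlap. Of each related list the 2 genes with the smallest p and the 2 with the highest CPM are named, except 1 gene that is not reported here. Alternatives were RLE, upper-quartile or no scaling, DESeq2 1.42.0, limma-voom and limma-trend (limma 3.58.1), other filters, the replicate number as a block, a threshold of 0.1, expected counts for shares, and leaving out each library. Leaving out short transcripts was added after the data were seen. No promoter or protein sequence of a member was used here.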

Additional observations from a re-analysis of the deposited data

Results flagged for a closer look

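In 63 values screened over the 4 KO/+ libraries (members, cluster sums and shares), 6 had 1 library far from the other three, where chance flags about 1 in 20. KO/+ replicate 4 was the distant library in 4 of them. It had 19.5 CPM of Pcdhgb5 where the others had 10.9 to 12.3, and 15.3 CPM of Pcdhgb7 where the others had 10.2 to 10.6. Its alpha cluster sum was 221 CPM against 189 to 194 CPM, and its C-type share of gamma TPM was 66.9% against 70.9% to 71.6%. KO/+ replicate 1 had 32.3 CPM of Pcdhga6 against 22.6 to 24.2 CPM. KO/+ replicate 3 had 4.45 CPM of Pcdhb21 against 4.197 to 4.23 CPM, a small distance at this level. Groups of 3 WT libraries were not screened.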

How the results depend on the processing

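No member was called under any alternative run. Over all genes the count was 0, except 1 with the replicate block, and 0 to 1 when 1 library was left out (1 without WT replicate 2, WT replicate 3 or KO/+ replicate 4). The replicate numbers did not pair the samples (correlations of same-numbered libraries 0.086, -0.17 and -0.022). With the block, to which KO/+ replicate 4 adds nothing, 1029 genes and 7 members had an unadjusted p under 0.05 against 530 and 4, and 49 of 57 members were negative. DESeq2 gave 597 genes at an unadjusted p under 0.05, limma-voom 497, limma-trend on log2(TPM + 1) 442, no filter 745 and the fit without KO/+ replicate 4 1562, of which 8 were members.

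Leaving out 1 library moved the median log2 fold change of the members to between -0.20 and -0.11, the alpha sum to between -0.22 and -0.14, the beta sum to between -0.10 and 0.0021 and the gamma sum to between -0.12 and -0.0089. The C-type share differed by 2.81 to 5.27 points in alpha and 2.09 to 3.73 points in gamma, the regulators' median lay between -0.074 and -0.0086 and that of the partners between -0.13 and -0.026. The C-type genes near 0 changed sign, with Pcdhac1 at -0.10 to 0.043, Pcdhac2 at -0.094 to 0.032, Pcdhgc3 at -0.065 to 0.064 and Pcdhgc4 at -0.052 to 0.068. Pcdhgc5 was at -0.63 to 0.0030, above 0 without WT replicate 3. Pcdhgc3 was at 0.0098 with upper-quartile scaling. Pcdhgc4 was at -0.0012 with RLE, -0.0013 with DESeq2, -0.0082 and -0.0083 with limma-trend on log2(TPM + 1) and log2(TPM + 0.1), -0.023 with the replicate block and -0.23 without short transcripts. The cause was not tested. Depth limits Pcdhb1, with 0 to 7 reads per library, which was not tested.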

Other observations

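Other gene models of the region were read in the same libraries. The fused models Gm42416, Gm37013 and Gm37388, which span from the alpha to the gamma cluster, had 0 reads in every library. Gm38182, a processed transcript that shares the gamma constant exons, had 40.0, 64.3 and 106 expected counts in WT and 80.6, 121, 37.1 and 40.6 in KO/+. Taf7, a general transcription factor gene that lies between the beta and gamma clusters on the other strand, was at 9.52, 8.90 and 9.62 TPM in WT and 9.59, 9.75, 9.18 and 9.12 TPM in KO/+.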
